A study of Mus musculus with 2 samples.

Results

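Transporters set how a neuron handles glutamate, GABA and chloride, and 6 of their genes were followed here through the cell classes of the mouse dorsal telencephalon, the embryonic tissue that forms the cortex, at embryonic day (E) 14.5. The members were chosen by symbol, as the rows among the 32285 genes of the count tables named Slc17a6, Slc17a7, Slc12a2, Slc12a5, Slc1a2 and Slc1a3, and each symbol matched 1 row. Both libraries came from brain hemispheres labelled EomesDot and WT, control animals of an Eomes-Cre line, and their titles end in the numbers 2 and 4, used here as replicate numbers. The labels do not state how many embryos went into a library, the study's methods describe C57BL/6J embryos without saying how these relate to EomesDot, and no treatment or mutant was included. Every comparison is therefore between cell classes of the same 2 libraries, and p-values measure only the spread between these libraries, which may be technical.

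Slc17a6 (VGLUT2) and Slc17a7 (VGLUT1) load glutamate into synaptic vesicles and are the usual signs of a glutamatergic neuron. Slc1a2 (GLT-1) and Slc1a3 (GLAST) take glutamate back up across the plasma membrane, and Slc1a3 is a well known gene of radial glia and astrocytes. Slc12a2 (NKCC1) brings chloride into the cell and Slc12a5 (KCC2) extrudes it, and the balance between them sets whether GABA excites or inhibits a neuron. In the cortex Slc12a5 is known to rise as neurons mature, mainly after birth.

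The authors measured the 3′ ends of polyadenylated transcripts in single cells, and each captured molecule was counted by its unique molecular identifier (UMI). Replicate 2 held 40267872 UMIs and replicate 4 held 49422007, and after filtering 1197 and 1956 cells were retained, with a median of 30810 and 22949 UMIs per cell. The libraries shared 3 of 4301 barcodes, of which 1 was among the retained cells. Levels are given as UMIs per 1000000 UMIs of all genes (CPM) in the summed cells of a class in one library, with no correction for transcript length, since each transcript yields a single 3′ tag. Differences in capture between genes were not measured, so levels are compared between classes for 1 gene at a time. The classes were named from marker genes that include no member, and the members were left out of the clustering. They comprised 591 radial glial cell (RGC)-like, 509 intermediate progenitor cell (IPC)-like, 1289 excitatory neuron-like, 40 Cajal-Retzius-like, 138 medial ganglionic eminence (MGE) interneuron-like, 53 meningeal fibroblast-like and 97 GABAergic cells that fitted no sub-class. Smaller classes were described without a test, and 258 cells stayed without a name. Replicate 4 held 66 of the 67 striatal projection neuron-like cells, and the summed level of 9 erythroid genes in its RGC-like cells was 2729 CPM against 80.1 CPM in replicate 2.

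The deposited counts hold no sequence, so the stretches just before the RefSeq starts of the members show where transcription of each gene begins. RefSeq's GRCm38.p6 table, the build named mm10 in the submitters' processing notes, held an entry for 5 of the 6 members, and for 4 of them an entry at the gene's own start. They are shown because Slc17a6 and Slc17a7 were high in neurons, Slc1a3 was high in RGC-like cells and Slc12a5 was low in most classes. Each line gives the 250 bases before the start, 5′ to 3′ on the gene's strand, with every match to CANNTG, the core that bHLH factors such as the neurogenins can bind, in capitals.
Slc17a6, chr7:51621580-51621829, plus strand: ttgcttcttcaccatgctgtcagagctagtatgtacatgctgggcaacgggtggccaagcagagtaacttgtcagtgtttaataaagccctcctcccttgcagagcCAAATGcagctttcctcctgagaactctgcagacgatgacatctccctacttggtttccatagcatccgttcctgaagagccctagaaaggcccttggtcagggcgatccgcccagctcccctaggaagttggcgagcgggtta
Slc17a7, chr7:45163671-45163920, plus strand: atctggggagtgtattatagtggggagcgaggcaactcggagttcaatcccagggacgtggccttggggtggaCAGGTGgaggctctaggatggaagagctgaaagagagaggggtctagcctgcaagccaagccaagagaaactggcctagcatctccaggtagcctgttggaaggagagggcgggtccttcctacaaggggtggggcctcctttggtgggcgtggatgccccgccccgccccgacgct
Slc12a5, chr2:164960596-164960845, plus strand: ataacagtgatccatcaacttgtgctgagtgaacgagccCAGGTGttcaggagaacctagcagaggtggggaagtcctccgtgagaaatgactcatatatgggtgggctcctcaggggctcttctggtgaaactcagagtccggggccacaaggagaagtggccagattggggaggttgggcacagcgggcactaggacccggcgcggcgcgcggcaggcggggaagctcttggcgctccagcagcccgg
Slc1a3, chr15:8710808-8711057, minus strand: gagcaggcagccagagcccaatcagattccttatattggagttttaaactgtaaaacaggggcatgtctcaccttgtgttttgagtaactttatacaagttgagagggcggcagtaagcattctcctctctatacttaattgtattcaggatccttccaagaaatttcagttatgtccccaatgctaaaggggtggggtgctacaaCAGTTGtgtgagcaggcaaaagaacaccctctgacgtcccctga
CANNTG reads the same on both strands. It was matched 1 time in each of these 4 windows, beginning 144, 177, 211 and 44 bases before the start of Slc17a6, Slc17a7, Slc12a5 and Slc1a3, and it occurred in 66.2% of all 32851 promoter entries. CAGATG (or CATCTG on the other strand) was found in 14.4% of all entries, CAGCTG in 13.0% and the T-box core GGTGTGA (or TCACACC) in 3.33%, and none of these letters were in the 4 windows. Slc17a6 and Slc12a5 each had a second RefSeq entry at a later start, not shown, with 2 matches to CANNTG each, and that of Slc17a6 held 1 CAGATG. The windows of Slc17a7 and Slc12a5 each held 61.2% G and C, those of Slc17a6 and Slc1a3 53.2% and 44.8%, beside a median of 52.4% over all entries.

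The glutamate loaders were nearly absent from RGC-like cells and higher in both IPC-like and excitatory neuron-like cells. With each class taken as a whole, Slc17a6 was at its higher level in the former and Slc17a7 in the latter. Slc17a6 was at 0.268 CPM in replicate 2 and 0.812 CPM in replicate 4 in RGC-like cells. In IPC-like cells it was at 228 and 334 CPM, and in excitatory neuron-like cells at 115 and 129 CPM. Summed over each class, Slc17a6 was thus higher in IPC-like and excitatory neuron-like cells than in RGC-like cells in both libraries, with no overlap between the 3 classes. Slc17a7 was at 0.268 and 0.609 CPM in RGC-like cells, at 5.44 and 16.6 CPM in IPC-like cells and at 34.2 and 46.9 CPM in excitatory neuron-like cells. Its classes did not overlap either, and its highest level was in the neurons.

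**Figure D1:**
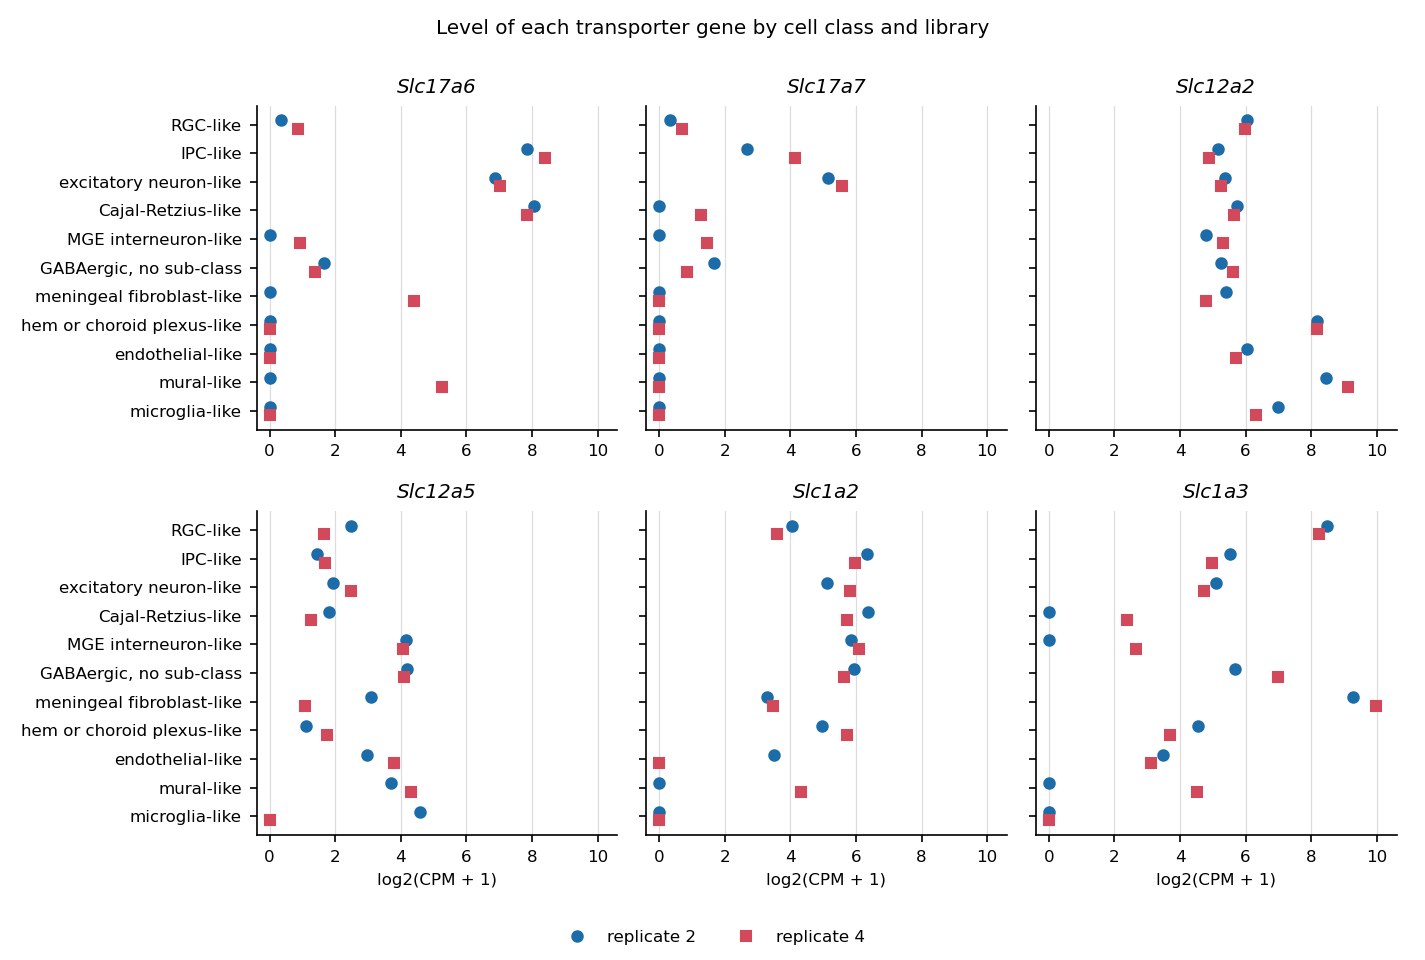
The 6 panels plot log2(CPM + 1) of each member (horizontal) in 11 classes (vertical), with a circle for replicate 2 and a square for replicate 4. Slc17a6 stands at 115 to 334 CPM in IPC-like, excitatory neuron-like and Cajal-Retzius-like cells, Slc17a7 is highest in excitatory neuron-like cells at 34.2 and 46.9 CPM, Slc12a2 is highest in mural-like and hem or choroid plexus-like cells, and Slc1a3 is highest in meningeal fibroblast-like and RGC-like cells.

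The differences were tested on summed counts of 7 classes with edgeR's quasi-likelihood test, Benjamini-Hochberg adjusted over 12361 genes, with calls made below an adjusted p of 0.05. Between IPC-like and RGC-like cells, 5 of the 6 members were called, 3 higher and 2 lower, where 18.7% of all tested genes were called higher and 19.0% lower, and the median log2 change was 0.95 over the members and 0.00 over all genes. Slc17a6 was higher by 8.97 on the log2 scale (SE 0.62, adjusted p = 2.05e-06) and Slc17a7 by 4.64 (SE 0.67, adjusted p = 0.000402). Between excitatory neuron-like and RGC-like cells 5 members were again called, 3 higher and 2 lower, against 30.0% of genes called higher and 26.3% lower, with medians of 1.20 and 0.05. Slc17a6 was higher by 7.90 (SE 0.61, adjusted p = 7.96e-07) and Slc17a7 by 6.61 (SE 0.61, adjusted p = 5.70e-06). The size of these changes rests on 10 UMIs of Slc17a6 and 8 of Slc17a7 in all RGC-like cells. With classes built on one part of the UMIs and tested on the rest, the Slc17a6 change was 2.36 in excitatory neuron-like cells and 4.09 in IPC-like cells, and at Leiden resolution 2 it was 4.92 and 6.72, still called each time (edgeR adjusted p between 5.30e-06 and 5.35e-05). The direction thus held, and the size varied with how the classes were built.

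From IPC-like to excitatory neuron-like cells the loaders moved in opposite directions. Slc17a7 was higher in the neurons by 1.98 on the log2 scale (SE 0.40, adjusted p = 0.00302) and Slc17a6 was lower by a log2 change of -1.07 (SE 0.37, adjusted p = 0.0433). These were the 2 members called in this comparison, where 19.1% of all genes were called higher and 16.9% lower and the medians were 0.10 and -0.00. The Slc17a6 call was lost under 3 of 10 alternatives: with coarser clusters (Leiden resolution 0.5) the change was -0.27 with an adjusted p of 0.677, and it was also not called with doublets kept (adjusted p = 0.10) or by DESeq2 (adjusted p = 0.343).

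**Figure D2:**
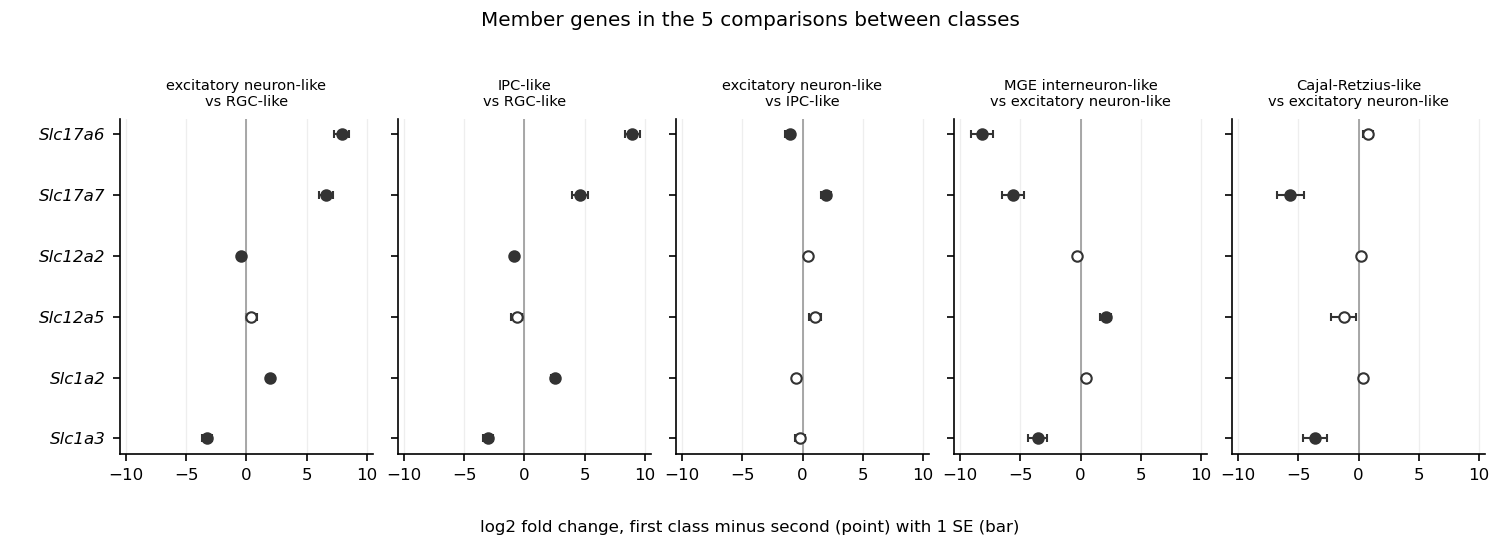
Each panel is one of the 5 comparisons and plots the log2 fold change of the 6 members, first class minus second, as a point with a bar of 1 SE from the edgeR fit; filled points were called at an adjusted p under 0.05 and open points were not. Slc17a6 and Slc17a7 lie far to the right against RGC-like cells and far to the left in MGE interneuron-like cells, where the fitted size rests on 1 and 2 UMIs; the fitted points of Slc17a7, Slc12a5 and Slc1a3 in Cajal-Retzius-like cells rest on 1, 2 and 3 UMIs.

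Individual clusters showed how steeply Slc17a6 changed inside both classes. Ordered within a class by the summed level of 10 excitatory neuron markers, the 4 IPC-like clusters held Slc17a6 at 57.8 and 96.4 CPM, at 263 and 273 CPM, at 331 and 457 CPM and at 515 and 574 CPM in replicates 2 and 4. The lowest of these, cluster 0, was led by Eomes and Neurog2, genes of intermediate progenitors, and the highest, cluster 11, had the neuronal gene Neurod6 among its leading genes. Slc17a6 thus rose step by step in both libraries with the markers of excitatory neurons. Summed IPC markers were at 3071 and 3490 CPM in cluster 0 and at 1545 and 1745 CPM in cluster 11. Summed excitatory neuron markers were at 1642 and 1680 CPM in cluster 0 and at 3056 and 2989 CPM in cluster 11. Slc17a6 in cluster 0 lay below the 115 and 129 CPM of excitatory neuron-like cells. The higher Slc17a6 level of the IPC-like class thus came from its other clusters. Among the neurons, cluster 1, which kept Neurod1 at 298 and 344 CPM, held Slc17a6 at 447 and 493 CPM. Clusters 16 and 10, with the highest summed excitatory neuron markers, held it at 0.279 and 3.81 CPM and at 8.40 and 3.49 CPM. The other 4 neuronal clusters lay between 23.6 and 212 CPM. Cluster 16 was the one richest in Tbr1, a deep-layer neuron gene, at 241 and 253 CPM.

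Slc17a7 did not follow that fall. Its levels were 53.5 and 60.4 CPM in cluster 16 and 35.3 and 46.5 CPM in cluster 10, and over all 7 neuronal clusters they lay between 21.2 and 60.4 CPM. In cluster 1, where Slc17a6 was highest among the neurons, Slc17a7 stood at 24.4 and 47.0 CPM. Cluster 1 held 54.1% and 67.2% of the Slc17a6 UMIs of the neuronal class in 17.8% and 21.9% of its cells. Clusters are a description of the same cells that defined them, and no test was made between them.

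**Figure D3:**
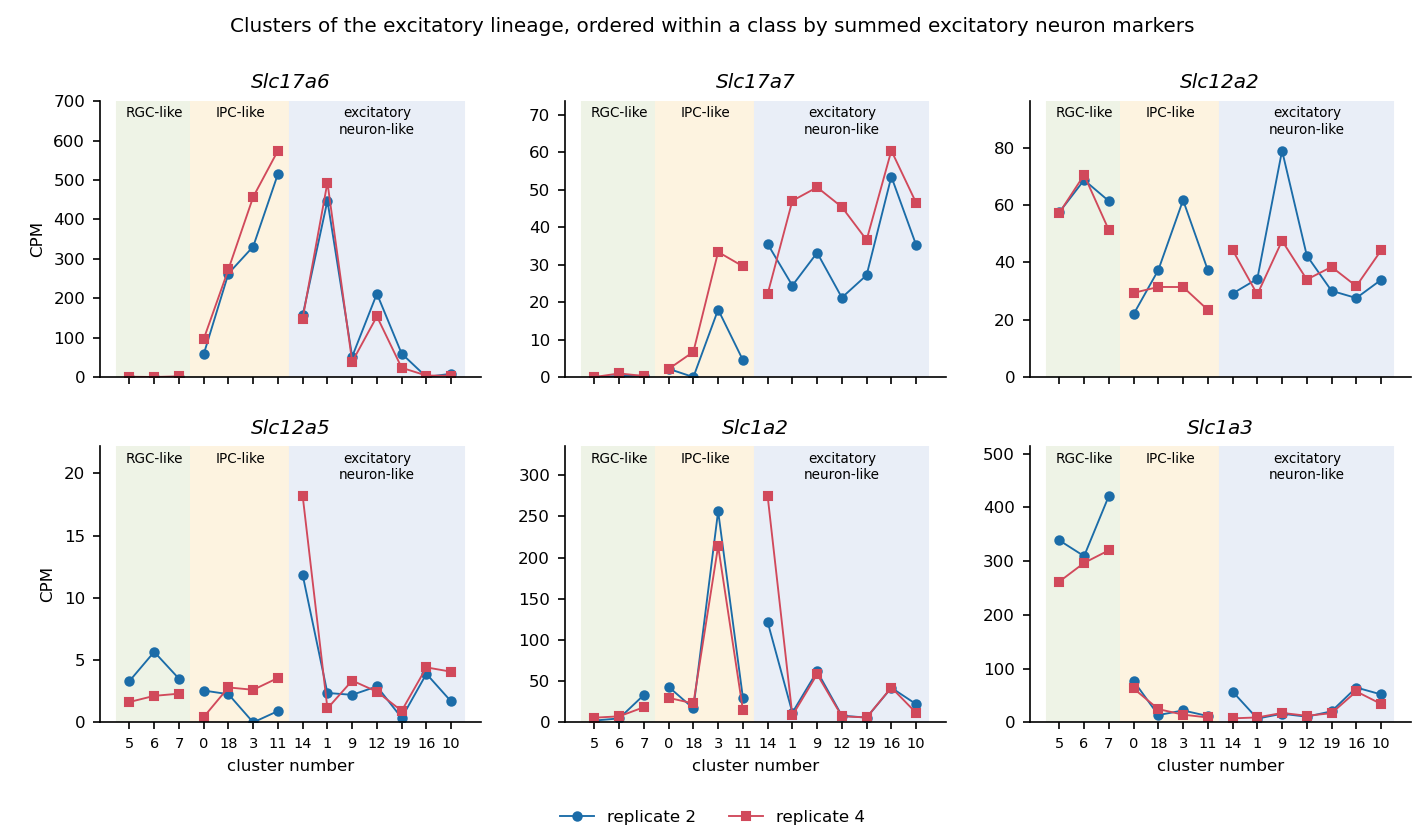
The panels plot CPM of each member (vertical) in the 14 clusters of the lineage from RGC-like cells to excitatory neuron-like cells (horizontal, by cluster number, shaded by class and ordered within a class by the summed excitatory neuron markers), with 1 line per library within a class. Slc17a6 climbs through the IPC-like clusters to 515 and 574 CPM, is at 447 and 493 CPM in cluster 1 and between 0.279 and 8.40 CPM in clusters 16 and 10, while Slc1a2 peaks in clusters 3 and 14 and Slc1a3 in the RGC-like clusters.

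Within single cells the loaders were mostly found apart at this depth. Each cell was thinned to 5000 UMIs, which left out 11 and 17 shallower RGC-like cells, 5 and 10 IPC-like cells and 4 and 23 excitatory neuron-like cells of replicates 2 and 4. After thinning, 53.0% ± 12.1 (SD, n = 2 libraries) of IPC-like cells and 31.1% ± 0.914 of excitatory neuron-like cells had a UMI of Slc17a6, beside 0.143% ± 0.202 of RGC-like cells and 0.658% ± 0.930 of MGE interneuron-like cells, which should lack the gene. Without thinning the shares were 68.8% and 73.5% in IPC-like cells, 49.9% and 47.9% in excitatory neuron-like cells and 0.893% and 1.36% in RGC-like cells, at median depths of 29835 and 22943, 34768 and 25229, and 31627 and 26220 UMIs. A UMI of Slc17a7 was found in 4.92% ± 3.18 of thinned IPC-like cells, 17.6% ± 2.84 of excitatory neuron-like cells and in 0 of 213 and 0 of 350 RGC-like cells, with exact 95% upper bounds of 1.72% and 1.05%. Of the thinned excitatory neuron-like cells, 27.0% ± 2.24 had Slc17a6 alone, 13.5% ± 1.52 had Slc17a7 alone and 4.09% ± 1.33 had both. With all UMIs counted, 22.7% ± 1.13 had both. At these low counts a missing UMI does not show that a cell lacked the transcript.

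**Figure D4:**
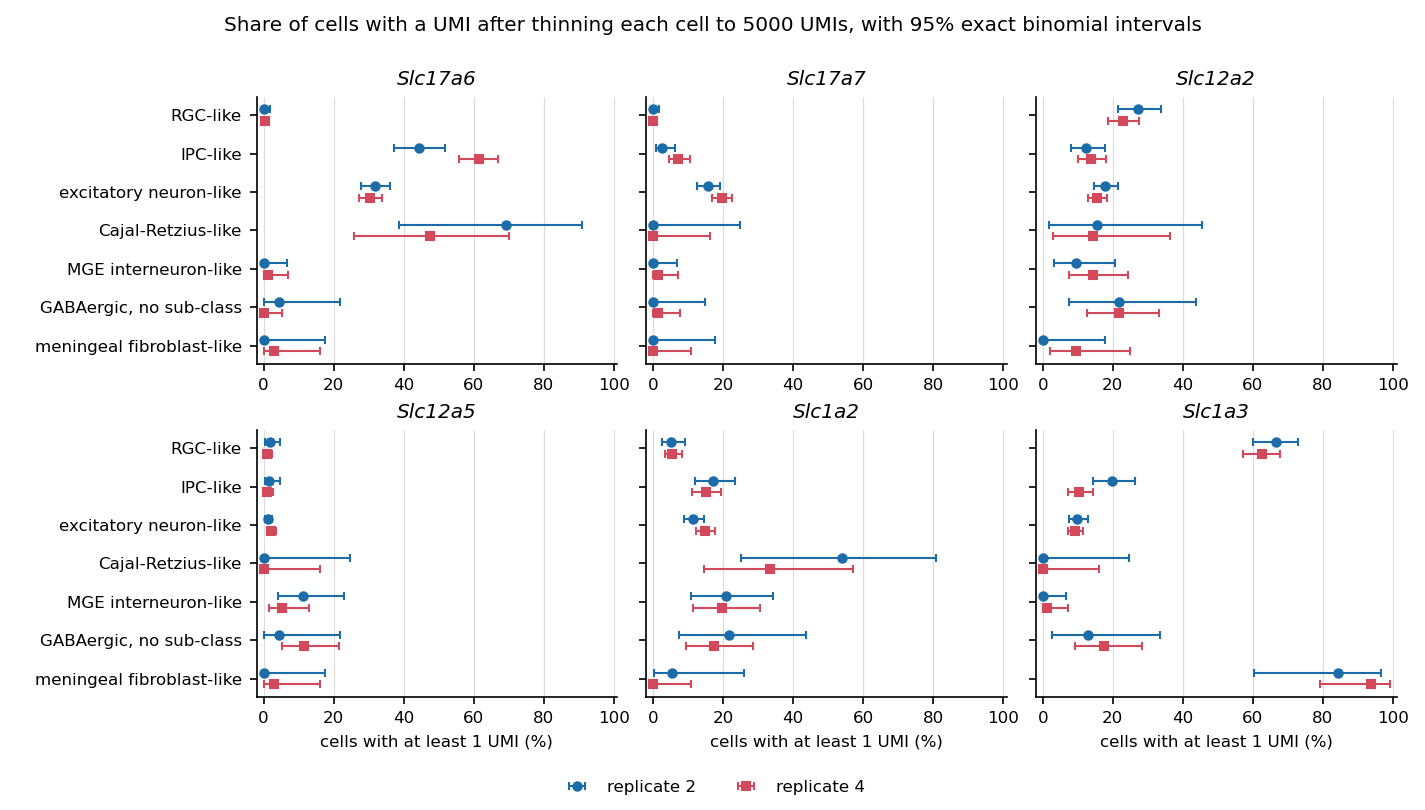
Each panel plots the percent of cells with at least 1 UMI of a member (horizontal) by class (vertical) after every cell was thinned to 5000 UMIs, per library, with 95% exact binomial intervals that cover counting error only. Slc17a6 is found in 44.4% and 61.6% of IPC-like cells and near 0 in RGC-like and MGE interneuron-like cells, and Slc1a3 is found in 66.7% and 62.6% of RGC-like cells.

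Cajal-Retzius-like cells, the early Reln neurons of the cortical surface, carried Slc17a6 and almost no Slc17a7. Slc17a6 was at 264 and 231 CPM, found in 13 of 16 and 21 of 24 cells. Slc17a7 was at 0 and 1 UMI, while excitatory neuron-like cells held 1573 UMIs. Against excitatory neuron-like cells 2 members were called, both lower, where 7.90% of all genes were called higher and 7.70% lower and the medians were -0.54 and -0.08. The first was Slc17a7 (edgeR adjusted p = 0.00693), whose CPM was 0.0221 of that in excitatory neuron-like cells (95% counting interval 0.000559 to 0.123). The second was Slc1a3 with 0 and 3 UMIs (edgeR adjusted p = 0.0276), a ratio of 0.0931 (0.0192 to 0.273), a call that was lost under 2 of 10 alternatives (adjusted p = 0.122 and 0.142). Slc17a6 was not called (0.79, SE 0.40, adjusted p = 0.22), although the libraries of the classes did not overlap, and was called under 4 of 10 alternatives.

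MGE interneuron-like cells, GABAergic neurons that migrate into the cortex, lacked both loaders at this depth. There was 0 and 1 UMI of Slc17a6 and there were 0 and 2 UMIs of Slc17a7 in 54 and 84 cells. The ratio to excitatory neuron-like cells was 0.00342 for Slc17a6 (95% counting interval 8.67e-05 to 0.0191) and 0.0206 for Slc17a7 (0.00249 to 0.0744), and both were called lower (edgeR adjusted p = 0.000101 and 0.00156). Slc32a1, which loads GABA into vesicles, was at 112 and 109 CPM in the same cells. Of the 6 members 4 were called against excitatory neuron-like cells, 1 higher and 3 lower, where 7.85% of all genes were called higher and 11.9% lower and the medians were -1.94 and -0.06. In classes outside the neural lineage, Slc17a6 appeared only in replicate 4, as 18 UMIs in 2 meningeal fibroblast-like cells and 12 UMIs in 1 mural-like cell.

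Slc1a3 was the radial glial member. It was at 356 and 301 CPM in RGC-like cells, at 44.5 and 30.3 CPM in IPC-like cells and at 32.9 and 25.7 CPM in excitatory neuron-like cells. Slc1a3 was lower in IPC-like than in RGC-like cells by a log2 change of -3.04 (SE 0.42, adjusted p = 0.000208) and lower in excitatory neuron-like cells by -3.26 (SE 0.42, adjusted p = 4.37e-05). From IPC-like to excitatory neuron-like cells the change was -0.22 (SE 0.40, adjusted p = 0.713), and the libraries overlapped. The summed level of 12 RGC markers ran beside it, with 6513 and 5882 CPM in RGC-like cells, 1035 and 939 CPM in IPC-like cells and 798 and 713 CPM in excitatory neuron-like cells, and the part of residual RGC transcripts in the neuronal level was not tested.

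Among the neuronal clusters Slc1a3 stood at 7.09 and 9.24 CPM in cluster 1 and at 64.9 and 57.6 CPM in cluster 16. Slc1a3 was thus low in the neuronal cluster with the highest Slc17a6 and higher in one where Slc17a6 was nearly gone, although cluster 14 held 57.4 CPM in replicate 2 and 7.54 CPM in replicate 4. The summed RGC markers moved with it, at 378 and 390 CPM in cluster 1 and at 1212 and 1102 CPM in cluster 16, and their part in the result was not tested. In MGE interneuron-like cells it was at 0 and 5.29 CPM, and the 6 UMIs behind the second value all came from 1 cell. Slc1a3 was called lower than in excitatory neuron-like cells (edgeR adjusted p = 0.00794), but the fitted log2 change of -3.56 (SE 0.78) ran from -10.8 to -3.52 over 10 alternatives, and it was -2.26 in replicate 4 alone, so only the direction is read. GABAergic cells without a sub-class held 50 and 127 CPM, most of it in the sub-cluster led by Top2a and Mki67, dividing cells, at 107 and 177 CPM. Meningeal fibroblast-like cells had the highest Slc1a3 level of the 7 tested classes, 612 and 1003 CPM, in 84.2% and 100% of cells.

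Slc1a2 showed a different course from Slc1a3. It was at 15.4 and 11.1 CPM in RGC-like cells, at 79.0 and 61.6 CPM in IPC-like cells and at 33.5 and 55.1 CPM in excitatory neuron-like cells. Both neuronal-lineage classes lay above RGC-like cells in each library. Slc1a2 was higher than in RGC-like cells by 2.51 on the log2 scale in IPC-like cells (SE 0.27, adjusted p = 4.25e-05) and by 1.98 in excitatory neuron-like cells (SE 0.27, adjusted p = 6.47e-05). From IPC-like to excitatory neuron-like cells the change was -0.53 (SE 0.25, adjusted p = 0.12). In Cajal-Retzius-like cells Slc1a2 stood at 82.2 and 52.4 CPM and in MGE interneuron-like cells at 57.0 and 67.0 CPM, and neither differed from excitatory neuron-like cells beyond the spread (adjusted p = 0.547 and 0.315).

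Slc1a2 was uneven among clusters. Cluster 3 of the IPC-like class held 256 and 214 CPM, and cluster 14 of the excitatory neuron-like class held 122 and 275 CPM. Cluster 3 carried 64.3% and 70.0% of the Slc1a2 UMIs of IPC-like cells in 16.1% and 17.0% of the cells. It was led by Eomes and Neurod1, while in cluster 11 Slc1a2 was at 30.0 and 15.3 CPM. Among the neurons, cluster 14 held 22.0% of the Slc1a2 UMIs in replicate 2, fewer than cluster 9 (32.1%) and cluster 16 (24.8%), and 55.5% in replicate 4. In the other neuronal clusters Slc1a2 lay between 5.80 and 61.9 CPM. In RGC-like cells 82.6% and 58.7% of its UMIs came from cluster 7, which held 45.1% and 40.1% of the cells. Cluster 7 had 72.3 and 54.2 CPM of the proliferation gene Mki67, where cluster 6 had 510 and 427 CPM and cluster 5 had 272 and 195 CPM. By assigned cell cycle phase, Slc1a2 was at 84.2 and 26.3 CPM in G1 RGC-like cells and at 2.12 and 4.54 CPM in G2/M cells, while Slc1a3 was at 533 and 447 CPM and at 351 and 303 CPM. A UMI of Slc1a2 was found in 26.3% of 38 and 11.1% of 36 G1 cells, and in 4.40% of 91 and 7.57% of 185 G2/M cells. Phases were assigned from summed cell cycle genes, and the part of free RNA in them was not tested. After thinning, 60.4% ± 2.94 of RGC-like cells had a UMI of Slc1a3 alone, 1.04% ± 0.144 of Slc1a2 alone and 4.26% ± 0.0427 of both, while in IPC-like cells the shares were 12.2% ± 4.75, 13.1% ± 0.368 and 2.95% ± 1.87.

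The chloride importer Slc12a2 (GRCm38.p6 chromosome 18, 57878512 to 57946821) was found in every tested class. It was at 64.6 and 62.1 CPM in RGC-like cells, at 35.0 and 28.7 CPM in IPC-like cells and at 40.7 and 37.4 CPM in excitatory neuron-like cells. RGC-like cells were thus highest of the lineage in each library. Slc12a2 was lower in IPC-like cells by a log2 change of -0.90 (SE 0.18, adjusted p = 0.00226). In excitatory neuron-like cells it was lower by -0.47 (SE 0.17, adjusted p = 0.0354), a call that was lost under 4 of 10 alternatives, with adjusted p between 0.00118 and 0.162 over all of them. Cajal-Retzius-like cells held 52.3 and 49.6 CPM and MGE interneuron-like cells 26.5 and 38.8 CPM, and neither was called against excitatory neuron-like cells (adjusted p = 0.701 and 0.359).

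In some classes outside the neuronal lineage Slc12a2 reached far higher levels. Hem or choroid plexus-like cells, the class of the epithelium that secretes cerebrospinal fluid, held 288 and 291 CPM, in each of 18 and 9 cells. Mural-like cells of the vessel wall held 350 and 561 CPM in 3 and 9 cells. These classes fell short of the 10 cells per library set for a test, so the comparison of hem or choroid plexus-like with RGC-like cells was not made. Endothelial-like cells held 64.7 and 51.2 CPM and meningeal fibroblast-like cells 41.5 and 26.7 CPM, beside 64.6 and 62.1 CPM in RGC-like cells.

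The chloride extruder Slc12a5 was sparse in the excitatory lineage. It was at 4.56 and 2.13 CPM in RGC-like cells, at 1.70 and 2.24 CPM in IPC-like cells and at 2.86 and 4.58 CPM in excitatory neuron-like cells, from 34 and 21, 10 and 17, and 52 and 93 UMIs. No comparison within the lineage was called for Slc12a5 (adjusted p = 0.374, 0.439 and 0.118 for IPC-like against RGC-like, excitatory neuron-like against RGC-like, and excitatory neuron-like against IPC-like cells). After thinning, 1.37% ± 0.722, 1.29% ± 0.443 and 1.72% ± 0.755 of these cells had a UMI, beside 1.56% ± 2.21 of meningeal fibroblast-like cells, which should lack this neuronal gene. That reference is 0 of 19 and 1 of 32 cells, with exact 95% upper bounds of 17.6% and 16.2%, so expression in the lineage as a whole could not be told from background at this depth. Cluster 14 of the excitatory neuron-like class stood apart, with Slc12a5 at 11.8 and 18.2 CPM and 25% and 44.1% of the class's Slc12a5 UMIs in 5.09% and 13.6% of its cells. It was led by Tafa1 and Tafa2, and all other neuronal clusters lay between 0.363 and 4.42 CPM.

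In MGE interneuron-like cells Slc12a5 stood at 16.9 and 15.9 CPM, from 21 and 18 UMIs. This was above every library of the excitatory lineage, and the log2 change against excitatory neuron-like cells was 2.08 (SE 0.47, adjusted p = 0.00933). The call was lost when classes were built on one part of the UMIs and tested on the rest (1.72, adjusted p = 0.122). The UMIs came from 13 of 54 and 7 of 84 cells, and 1 cell of replicate 4 held 7 of the 18. After thinning, 11.3% and 5.26% of the cells had a UMI, against 0% and 3.13% of meningeal fibroblast-like cells, at median depths of 23451 and 10737 against 39628 and 27314 UMIs. In mural-like and endothelial-like cells, which should lack Slc12a5, 1 and 6 UMIs gave 12.1 and 18.8 CPM and 2 and 5 UMIs gave 6.81 and 12.8 CPM, so the level alone did not set MGE interneuron-like cells apart from every class of few cells, and the part of free RNA was not tested. Within the class, the sub-cluster led by Sst held 17 and 17 of these UMIs in 34 and 34 cells, at 21.1 and 26.9 CPM, and the sub-cluster led by Nxph1 and Maf held 4 and 1, at 9.10 and 1.99 CPM. GABAergic cells without a sub-class had Slc12a5 at 17.4 and 16.0 CPM, but from different cells in each library. In replicate 2 all 8 UMIs lay in 18 cells of a sub-cluster led by Egfem1 and Ccnd2, which held 1 UMI in 8 cells of replicate 4. A sub-cluster of 26 cells there, all of replicate 4 and also led by Sst, held 16 of the 20 UMIs of replicate 4, at 42.2 CPM. Striatal projection neuron-like cells of replicate 4 held 17 UMIs of Slc12a5 in 12 of 66 cells, at 16.5 CPM.

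The balance of the chloride transporters, taken as the log2 ratio of Slc12a2 to Slc12a5 UMIs with 0.5 added to each, was lower in the tested GABAergic classes than in the RGC-like, IPC-like, excitatory neuron-like and Cajal-Retzius-like classes, with wide differences inside some classes. It was 3.81 and 4.83 in RGC-like, 4.30 and 3.64 in IPC-like, 3.82 and 3.02 in excitatory neuron-like and 3.84 and 4.56 in Cajal-Retzius-like cells. These 4 classes overlapped with each other or nearly so: Cajal-Retzius-like and excitatory neuron-like cells of replicate 2 were 3.84 and 3.82. The Cajal-Retzius-like value rests on 1 and 1 UMIs of Slc12a5, and with 5 UMIs added its mean fell to 2.43, below the 3.34 of excitatory neuron-like cells. MGE interneuron-like cells stood at 0.64 and 1.27 and GABAergic cells without a sub-class at 1.04 and 1.56, below every library of the other 5 classes. The mean of the latter class, 1.30, was 2.22 with doublets kept and 1.84 at Leiden resolution 0.5, and the class gave no value at resolution 2, where it held no cells, or at most 5% mitochondrial UMIs, where it held 12 and 4 cells. Meningeal fibroblast-like cells stood at 2.37 and 4.03, from 6 and 1 UMIs of Slc12a5. After thinning, 0 of their 19 cells in replicate 2 had a UMI of either gene, so the added 0.5 set that log2 ratio to 0. Their thinned mean of 0.79 therefore does not show whether they stay above the GABAergic classes. The thinned means of those were 0.72 in MGE interneuron-like cells and 1.58 in GABAergic cells without a sub-class. Within MGE interneuron-like cells the Sst-led sub-cluster stood at 0.30 and 0.36, and the sub-cluster led by Nxph1 and Maf at 1.47 and 3.91, the latter from 22 UMIs of Slc12a2 and 1 of Slc12a5. In replicate 2 both sub-clusters thus lay below every library of the other 5 classes, and in replicate 4 only the Sst-led one did. In replicate 4 the dividing GABAergic sub-cluster stood at 3.34, striatal projection neuron-like cells at 2.03 and caudal ganglionic eminence interneuron-like cells at 2.32. In excitatory neuron-like cells the same ratio without the logarithm was 14.1 and 8.12, and in MGE interneuron-like cells 1.56 and 2.41.

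The difference in balance between excitatory neuron-like and MGE interneuron-like cells was 2.47 on the log2 scale (3.18 in replicate 2 and 1.76 in replicate 4). An exact two-sided permutation test gave p = 0.333 for it, the smallest value that 2 libraries against 2 allow, so no balance difference could pass 0.05. The place of RGC-like cells within the excitatory lineage did not hold between libraries. RGC-like minus excitatory neuron-like was -0.01 in replicate 2 and 1.81 in replicate 4, and RGC-like minus IPC-like was -0.49 and 1.19. IPC-like minus excitatory neuron-like was 0.48 and 0.62, the same order in both. By cluster, the balance of excitatory neuron-like cluster 14 was 1.27 and 1.28, inside the range of the GABAergic classes, while the other neuronal clusters lay between 2.78 and 5.80. The hem or choroid plexus-like cluster had the highest mean balance of the 26 clusters, 7.37 and 6.36 from 1 and 1 UMIs of Slc12a5.

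**Figure D5:**
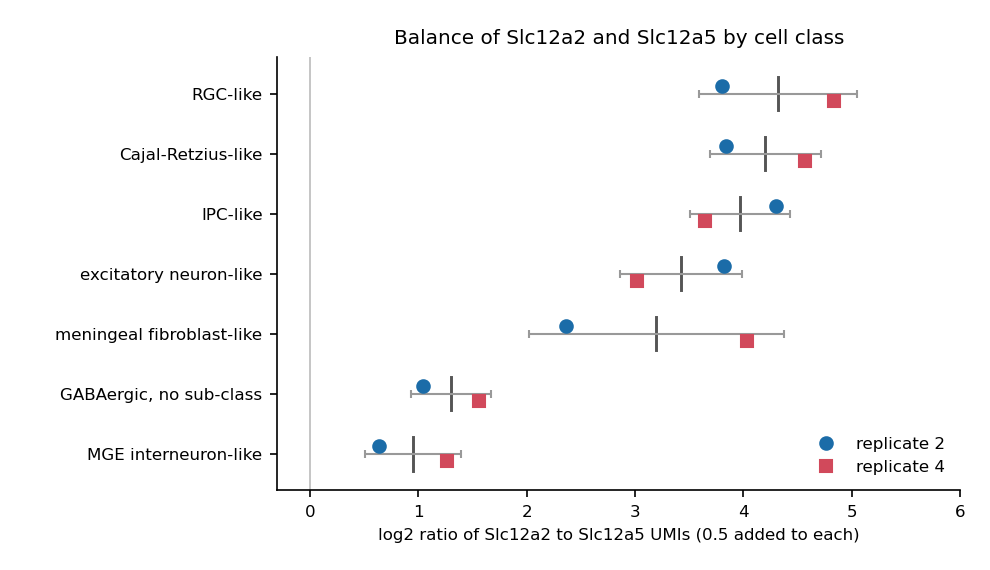
The log2 ratio of Slc12a2 to Slc12a5 UMIs (horizontal) is plotted for the 7 tested classes (vertical), with a point per library, a bar at the mean and a whisker of 1 SD (n = 2). MGE interneuron-like cells and GABAergic cells without a sub-class lie between 0.64 and 1.56, and the 5 other classes between 2.37 and 4.83.

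The members were set beside 41 related genes of glutamate, GABA, glutamine and chloride handling, of which 34 were tested. Between excitatory neuron-like and RGC-like cells 13 rose and 8 fell (38.2% and 23.5% of those tested, beside 30.0% and 26.3% of all genes), with a median log2 change of 0.10 over the list and 0.05 over all genes. Slc1a1 (EAAC1), the neuronal glutamate transporter of the same family as Slc1a2 and Slc1a3, was higher by 5.29 (33.0 against 0.895 CPM, adjusted p = 6.23e-05). Its neutral amino acid relatives Slc1a5 and Slc1a4 were lower by log2 changes of -3.18 and -1.0. The bicarbonate-chloride exchangers Slc4a10 and Slc4a8 were higher by 4.06 and 1.83, while Slc4a2 was lower (-1.29). Of the other cation-chloride genes, Slc12a7 (KCC4), a further potassium-chloride cotransporter, was lower at -2.01 (5.02 against 23.8 CPM, adjusted p = 1.76e-05) and Slc12a9 was higher at 1.43. Clcn4 and Clcn6, intracellular chloride-proton exchangers, were higher by 2.03 and 0.91. Among the kinases that act on the cotransporters, Wnk2 was higher by 1.37 and Stk39 (SPAK), which activates Slc12a2, was lower at -1.01 (110 against 260 CPM, adjusted p = 0.00488).

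Between IPC-like and RGC-like cells 5 of the 34 related genes rose and 7 fell, 14.7% and 20.6% of those tested, near the 18.7% and 19.0% of all genes (median -0.05 over the list, 0.00 over all genes). Among the higher genes, Slc4a10 rose by 2.97, Wnk2 by 1.25, Slc12a9 by 1.12 and Clcn4 by 0.87. The 6 of the 7 lower genes with 10 CPM or more in either class were Slc1a4 (-1.93), Slc1a5 (-1.59), Stk39 (-1.35), Slc4a2 (-1.02), Glud1 (-0.65) and Glul (-0.48), the last being glutamine synthetase. From IPC-like to excitatory neuron-like cells 9 rose and 5 fell, 26.5% and 14.7% beside 19.1% and 16.9% of all genes (median 0.26 over the list, -0.00 over all genes). Slc1a1 (4.25), Slc4a8 (1.61), Clcn4 (1.15), Wnk3 (1.14), Slc4a10 (1.09), Clcn6 (0.74) and Slc4a3 (0.60) were among the higher genes, and Slc12a7 (-2.03) and Wnk1 (-0.57) among the lower.

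When MGE interneuron-like cells were set against excitatory neuron-like cells, 5 of the 34 were higher and 3 lower, 14.7% and 8.82% beside 7.85% and 11.9% of all genes (median 0.01 over the list, -0.06 over all genes). Among the higher genes, Slc32a1 rose by 9.47, Slc4a3 by 1.14, Wnk3 by 0.60 and Glul by 0.49. Slc4a10 (-2.78), Stk39 (-0.87) and the glutamine carrier Slc38a1 (-0.59) were lower. Wnk3 and Stk39, both regulators of the chloride cotransporters, differed in opposite directions, and a link of their levels to Slc12a5 was not tested. In Cajal-Retzius-like cells 2 were higher, among them Slc1a4 (1.32), and Slc38a1 was lower (-0.85), which made 5.88% and 2.94% beside 7.90% and 7.70% of all genes, with a median of -0.07 over the list and -0.08 over all genes.

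The genes whose levels ran most like each member over the 14 sums of 7 classes and 2 libraries were sought among 6351 genes with at least 50 CPM in their highest class, as a description over points that share libraries and depth. For Slc17a6 they were Tbr1 (Pearson's r = 0.948), Nhlh1 (0.938) and Ntng2 (0.936), for Slc17a7 Mllt3 (0.915), Phf20l1 (0.913) and Itpk1 (0.903), and for Slc1a3 Cnksr3 (0.981), Tcf7l2 (0.959) and Slc7a2 (0.955). Slc12a5 ran most like Dlx5 (0.927), a gene of GABAergic neurons, Gabra3 (0.90), a GABA-A receptor subunit, and Raph1 (0.894). Slc1a2 ran most like H3f3b (0.97), Parp6 (0.956) and Rbm4b (0.956). For Slc12a2 the nearest were Id4 (0.791), Galnt16 (0.790) and Irak1bp1 (0.78).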

How the data were processed

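Single cells of WT brain hemispheres (10x Genomics 3′ v3.1 chemistry, 2 libraries) were counted by the authors with Cell Ranger 7.0.0 on mm10, as the submitters' processing notes give them, and raw UMI counts per gene and cell were deposited. The setting for intronic reads is not given in the sources used here. Cells with at least 1000 genes and at most 10% mitochondrial UMIs were retained, 14 and 15 Scrublet doublets were left out, and cells were clustered with scanpy 1.11.5 (2000 variable genes without members or related genes, 30 components, 20 neighbours, Leiden resolution 1). A class needed 3 raised markers. Counts were summed per class and library for classes with 10 cells in each library, and 14 sums of 7 classes were fitted with edgeR 4.0.16 (R 4.3.3, TMM, filterByExpr, quasi-likelihood test). Alternatives included DESeq2 1.42.0. Exact permutation tests and binomial intervals used scipy 1.17.1, and the intervals cover counting error only. The fit was tested on simulated data. It recovered 62.0% of 2-fold changes in excitatory neuron-like against RGC-like cells and 61.1% in IPC-like against RGC-like cells. From IPC-like to excitatory neuron-like cells it recovered 52.8%. Against excitatory neuron-like cells, 28.4% were recovered in MGE interneuron-like and 27.8% in Cajal-Retzius-like cells, so most such changes were missed there. The members and lists were chosen with earlier results of these data known. All members are named, and from the 41 related genes up to 12 called ones per comparison with at least 10 CPM in either class, by size of change, plus the 3 genes most alike each member. A few genes that the rule names are not reported here. Classes of one library came from the same cell suspension, so the library number pairs the sums, and over 21 pairs of classes the correlation of deviations had a median of 0.109 (0.0276 to 0.342).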

Additional observations from a re-analysis of the deposited data

Results flagged for a closer look

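Slc12a2 stood out in classes that entered no comparison. Its mean level was 290 CPM in hem or choroid plexus-like cells (247 and 123 UMIs), 456 CPM in mural-like cells (29 and 179 UMIs) and 102 CPM in microglia or macrophage-like cells (11 and 14 UMIs). Each library of these 3 classes lay above every library of the 7 tested classes, among which the highest level was 64.6 CPM in RGC-like cells. In replicate 2, 1 cell held 19 of the 29 UMIs of mural-like cells and 1 cell held 10 of the 11 UMIs of microglia or macrophage-like cells, with UMIs in 2 of 3 and 2 of 5 cells. Among hem or choroid plexus-like cells, all of which had a UMI, 1 cell held 94 of the 247 UMIs in replicate 2 and 1 cell held 51 of the 123 in replicate 4. The classes held 18 and 9, 3 and 9, and 5 and 9 cells in replicates 2 and 4, and the difference was not tested.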

How the results depend on the processing

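With the library as a replicate block the members called stayed at 5, 5, 2, 4 and 2 in the 5 comparisons in the order of excitatory neuron-like against RGC-like, IPC-like against RGC-like, excitatory neuron-like against IPC-like, MGE interneuron-like and Cajal-Retzius-like against excitatory neuron-like cells, and the block changed no call. Of the tested values under alternatives, 280 kept direction and side of the threshold, 10 lost the call, 7 gained it and 3 changed sign. The sign changes were in values not called: Slc1a3 from IPC-like to excitatory neuron-like cells with doublets kept (0.14), and Slc12a2 in Cajal-Retzius-like cells at Leiden resolution 0.5 (-0.10) and with classes and tests from separate UMIs (-0.12). The members called from IPC-like to excitatory neuron-like cells fell to 1 with doublets kept and to 1 at resolution 0.5, and in Cajal-Retzius-like cells to 1 at resolution 0.5. The Slc1a3 call in Cajal-Retzius-like cells was lost at resolution 0.5 (edgeR adjusted p = 0.122) and with separate UMIs (adjusted p = 0.142). The balance moved to 3.34 in IPC-like, 2.81 in Cajal-Retzius-like and 0.79 in meningeal fibroblast-like cells after thinning, to 2.43 in Cajal-Retzius-like cells with 5 UMIs added, and in GABAergic cells without a sub-class to 2.22 with doublets kept and 1.84 at resolution 0.5; resolution 2 and the limit of 5% mitochondrial UMIs gave no value there. After thinning, 0 of 19 meningeal fibroblast-like cells of replicate 2 had a UMI of either gene. In Cajal-Retzius-like cells 0 of 13 and 0 of 21 had a UMI of Slc12a5. The 0.5 added to each gene thus shaped these 2 thinned values. Other causes were not tested. DESeq2's Wald test moved the median of all genes to 0.21 in Cajal-Retzius-like cells, where 62.3% of its calls were higher against 50.6%. With 1 library there was no test. No called value changed sign with 1 library, and sign changes of values not called were not counted. Slc12a5 in excitatory neuron-like against RGC-like cells was at 2.86 against 4.56 CPM in replicate 2. In replicate 4 it was at 4.58 against 2.13 CPM. Of the values from 1 library, 50 stayed within the spread of the 2 libraries and 10 moved by more. That spread grows with the disagreement of the libraries, so the count does not show that they agreed. The moved ones were Slc17a6 against RGC-like cells (6.97 in excitatory neuron-like cells, 8.20 and 8.51 in IPC-like cells), Slc17a7 against RGC-like cells (5.78 and 5.90, and 3.22), Slc1a2 in IPC-like against RGC-like cells (2.43), Slc12a5 from IPC-like to excitatory neuron-like cells (0.74), Slc17a6 in MGE interneuron-like cells (-6.76) and Slc1a3 in Cajal-Retzius-like cells (-6.58). Depth limits values from few UMIs, such as those of Slc12a5 and of the classes of few cells.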
